A study of Mus musculus with 9 samples.

Results

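A set of 9 genes of the tumour necrosis factor (TNF) receptor family were followed across 9 RNA sequencing libraries of mouse spleen regulatory T cells (Treg cells). The genes were taken by symbol from the deposited count table: Tnfrsf18, Tnfrsf4, Tnfrsf9, Tnfrsf1b, Tnfrsf1a, Tnfrsf25, Tnfrsf26, Cd27 and Tnfrsf14. They are 9 of the 54232 genes in the table, each with 1 row, and 9 of 9 passed the filter on low counts that left 14994 genes to test. The 3 groups were WT, a Usp21 knockout in Treg cells (labelled Usp21 Treg KO, here Usp21 KO) and a knockout of both Usp21 and Usp22 in Treg cells (labelled Usp21/Usp22 Treg KO, here dKO), with 3 libraries each, numbered in the labels as separate biological samples. Usp21 and Usp22 encode deubiquitinases, enzymes that remove ubiquitin from proteins, and Usp22 is a subunit of the SAGA transcription coactivator complex. Cells of every group carried a Foxp3 YFP reporter, by which they were sorted from spleen. The Cre driver, the deleted exons, the strain, the age and the treatment of the mice are not given in the sources used here, and there was no group with Usp22 deleted alone. The comparison of dKO with WT therefore carries the loss of both genes, and dKO against Usp21 KO is the comparison in which Usp22 differs.

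TNF receptor family proteins bind trimeric ligands of the TNF family on neighbouring cells. GITR (gene Tnfrsf18), OX40 (Tnfrsf4), 4-1BB (Tnfrsf9), TNFR2 (Tnfrsf1b), CD27 and HVEM (Tnfrsf14) have no death domain and recruit TRAF adaptors, through which they can activate the transcription factor NF-kB. TNFR1 (Tnfrsf1a) and DR3 (Tnfrsf25) carry a cytoplasmic death domain and recruit TRADD. GITR, OX40, 4-1BB, TNFR2 and DR3 act as costimulatory receptors on Treg cells, and GITR and OX40 are among the surface proteins by which mouse Treg cells are commonly recognised.

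Of the 9 genes, 6 lie on chromosome 4 and the others on chromosomes 6 and 7 (GRCm38, GENCODE M21). Tnfrsf4 (ENSMUSG00000029075, 156013843 to 156016612, plus strand) and Tnfrsf18 (ENSMUSG00000041954, 156026164 to 156028895, plus strand) are neighbours on chromosome 4 whose starts are 12.3 kb apart. Tnfrsf25 (ENSMUSG00000024793) spans 152115934 to 152120119 on the same chromosome, and Tnfrsf9 (ENSMUSG00000028965) spans 150914562 to 150946102. The promoter windows of these 4 genes are shown because 3 of them are the genes that passed a test below, and Tnfrsf9 because its second window holds an NF-kB site. Each window is the RefSeq sequence (GRCm38.p6) from 250 bases before to 50 bases after an annotated start, 5′ to 3′ on the plus strand, with matches to the NF-kB consensus in capitals. RefSeq and GENCODE place some of these starts differently.
Tnfrsf18, chr4:156026072-156026371: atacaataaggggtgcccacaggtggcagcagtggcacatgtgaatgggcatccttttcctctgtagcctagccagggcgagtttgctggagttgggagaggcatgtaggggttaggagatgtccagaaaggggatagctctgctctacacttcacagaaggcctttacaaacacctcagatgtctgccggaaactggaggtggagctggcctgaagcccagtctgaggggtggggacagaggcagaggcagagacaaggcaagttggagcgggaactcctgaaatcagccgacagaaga
Tnfrsf4, chr4:156013445-156013744: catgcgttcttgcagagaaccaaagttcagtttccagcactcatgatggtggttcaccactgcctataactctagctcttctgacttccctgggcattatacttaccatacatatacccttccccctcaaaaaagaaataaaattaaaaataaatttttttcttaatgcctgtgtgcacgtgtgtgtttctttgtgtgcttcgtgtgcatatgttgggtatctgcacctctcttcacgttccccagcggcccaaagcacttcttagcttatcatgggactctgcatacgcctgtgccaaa
Tnfrsf25, chr4:152116093-152116392: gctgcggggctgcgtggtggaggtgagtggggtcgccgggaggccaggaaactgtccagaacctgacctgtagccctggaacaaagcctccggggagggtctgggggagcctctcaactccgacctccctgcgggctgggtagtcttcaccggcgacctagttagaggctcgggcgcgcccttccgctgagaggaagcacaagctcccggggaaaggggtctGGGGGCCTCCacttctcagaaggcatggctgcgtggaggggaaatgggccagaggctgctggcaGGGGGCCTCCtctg
Tnfrsf9, chr4:150927749-150928048: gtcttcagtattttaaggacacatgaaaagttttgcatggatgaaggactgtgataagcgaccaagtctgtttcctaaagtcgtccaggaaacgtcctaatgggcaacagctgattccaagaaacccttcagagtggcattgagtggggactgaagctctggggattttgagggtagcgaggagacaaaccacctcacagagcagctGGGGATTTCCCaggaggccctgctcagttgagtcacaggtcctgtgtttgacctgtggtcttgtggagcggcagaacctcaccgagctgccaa
Windows were found for 8 of the 9 genes, 10 windows in all. The NF-kB consensus was searched on the strand as given and not on its complement, and it matched in 2 of the 10. In the Tnfrsf25 window shown, the matches begin 28 bases before and 36 bases after its start. In the Tnfrsf9 window shown, the 2 matches overlap and begin 43 and 42 bases before its start. Each of these genes has another window, not shown, that held 0 matches. That of Tnfrsf25, chr4:152115684-152115983, is the window that contains the GENCODE start of the gene. Of 32851 promoter windows of the same length in the mouse genome, 5.89% held a match in the same search of the strand as given. The forkhead core bound by factors such as Foxp3, TGTTTAC or its reverse complement GTAAACA, was in 3.65% of all windows and in 0 of the 10. The Tnfrsf18 and Tnfrsf4 windows held no match in these searches. A match is a description of letters and not a site shown to be bound.

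Libraries held between 18067377 and 40334577 counts. Levels are given as CPM, a gene's counts per 1000000 counts of its library after TMM scaling, which sets aside genes that differ most between libraries. Of the deleted genes, Usp21 fell in Usp21 KO (log2 fold change -1.31 ± 0.09 SE, adjusted p = 0.000371, edgeR) and in dKO (-1.18 ± 0.09, adjusted p = 0.000197), and Usp22 fell in dKO (-1.49 ± 0.11, adjusted p = 0.000213) with no overlap of the groups. The defining Treg markers Foxp3, Il2ra, Ctla4 and Ikzf2 and the T cell markers Cd4 and Cd3e were present in every library. Usp21 KO replicate 2 stood apart. Its effector Treg score, the mean log2 deviation of 18 effector genes from the 9-library average, was 1.03, while replicates 1 and 3 of its group scored -0.10 and -0.26. Its resting T cell score was -1.02, while theirs were 0.08 and 0.18. Summed markers of other cells were higher in dKO than in WT, with an overlap for B cell markers. Single markers went both ways, with Cd79b (-0.29), Cd8b1 (-0.22), Ccl5 (-0.44) and Prf1 (-0.13) at lower estimates in dKO. With edgeR, 0 of 9 B cell, 0 of 4 plasma cell, 2 of 12 myeloid, 3 of 11 CD8 T and NK and 2 of 5 erythroid markers passed. Those that passed were higher in dKO, beside 3.01% of all genes that rose. The summed CPM of 12 myeloid markers was 394.4 to 985.1 in dKO, 87.82 to 299.1 in WT and 90.08 to 262.2 in Usp21 KO, with none of the 12 at 0 in any library. The 9 B cell markers summed to 62.86 to 71.75 CPM in dKO and 33.64 to 64.25 in WT, the 11 CD8 T and NK markers to 100.7 to 111.8 and 75.06 to 92.41, and the 5 measured erythroid markers to 33.52 to 73.73 and 13.9 to 22.01. The 4 plasma cell markers summed to 203.6 to 252.9 CPM in dKO and 116.8 to 162.3 in WT. Of the myeloid markers, Lyz2 alone averaged 430 CPM in dKO and 101 in WT. In Usp21 KO the B cell sums were 37.26 to 56.94 CPM. The CD8 T and NK (58.42 to 116), erythroid (20.12 to 58.9) and plasma cell sums (128.8 to 227.9) of Usp21 KO overlapped those of dKO. The part of these other cells in the receptor values was not tested. In bulk RNA a fall in transcript level and a smaller share of cells that carry it cannot be told apart.

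The order of the receptor genes can be compared only per length, as counts per kilobase of exon scaled to the same total over all genes. These lengths include exon bases shared with another gene, 414 of 1524 in Tnfrsf18, 129 of 2328 in Cd27 and 107 of 3218 in Tnfrsf26. Reads there may not be separable, so the places of these genes in the order are uncertain, above all that of Tnfrsf18 beside Tnfrsf1b. In WT, Cd27 (760 ± 41.6, SD, n = 3) and Tnfrsf4 (681 ± 36.8) had the highest levels per length. Tnfrsf1b (468 ± 13.0) and Tnfrsf18 (433 ± 20.2) followed, and their WT ranges overlapped, at 453 to 477 and 415 to 455, with Tnfrsf1b higher in 3 of 3 libraries. Tnfrsf25 stood at 245 ± 4.08 and Tnfrsf9 at 212 ± 19.8, without overlap. Tnfrsf14 (104 ± 9.03), Tnfrsf1a (69.8 ± 6.48) and Tnfrsf26 (59.4 ± 0.569) were lowest, in that order and without overlap between neighbours. In dKO the order of the means was the same except that Tnfrsf9 (194 ± 16.1) and Tnfrsf25 (185 ± 12.9) changed places, with Tnfrsf9 higher in 2 of 3 libraries. The dKO ranges of Cd27 and Tnfrsf4 overlapped, at 568 to 604 and 467 to 573, with Cd27 higher in 3 of 3 libraries. Those of Tnfrsf1a and Tnfrsf26 overlapped as well, at 69.5 to 79.8 and 70.4 to 78.2, with Tnfrsf1a higher in 1 of 3. In Usp21 KO, Tnfrsf4 (725 ± 146) and Cd27 (705 ± 147) could not be ordered beyond their spread, with Cd27 higher in 2 of 3 libraries. Tnfrsf1b (541 ± 120.0) and Tnfrsf18 (413 ± 84.3) had overlapping ranges there, with Tnfrsf1b higher in 3 of 3 libraries.

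Tnfrsf18 and Tnfrsf4 were the receptor genes that passed the threshold in dKO against WT, both lower. Tnfrsf25 (-0.52, adjusted p = 0.0501, edgeR) and Cd27 (-0.49, 0.0536) had estimates of similar size just outside it. GITR transcripts were counted at 184, 172 and 167 CPM in WT and at 115, 126 and 114 CPM in dKO. Every dKO library lay below every WT library, and the dKO mean was 67.7% of WT. The log2 fold change was -0.56 ± 0.12 (SE; 95% interval -0.84 to -0.28; adjusted p = 0.0299, edgeR). Usp21 KO had 145, 201 and 139 CPM, 1 library above and the others below the WT range, and the difference from WT did not pass (-0.11 ± 0.12, adjusted p = 0.798). Against Usp21 KO, dKO stood at -0.46 ± 0.12 (adjusted p = 0.0634), without overlap but short of the threshold. An antisense gene, Gm16008, shares 414 exon bases with Tnfrsf18 and was at -0.38 ± 0.32 in dKO against WT (adjusted p = 0.521). The strand setting of the counting is not given in the sources used here, so reads of this pair may not be separable.

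OX40 transcripts (Tnfrsf4) were counted at 254, 252 and 230 CPM in WT, 224, 316 and 224 CPM in Usp21 KO and 158, 191 and 157 CPM in dKO. The dKO libraries lay below all libraries of the other groups, while WT and Usp21 KO overlapped. Tnfrsf4 fell both against WT (-0.54 ± 0.14, adjusted p = 0.0476) and against Usp21 KO (-0.59 ± 0.14, adjusted p = 0.0391, edgeR). It was the only one of the 9 that passed in both of these comparisons, which share the dKO libraries. With 1 library left out, the call against Usp21 KO held in 2 of 9 fits and was lost without any 1 WT or dKO library or Usp21 KO replicate 1, and the call against WT held in 3 of 9. Against WT the Usp21 KO value was 0.05 ± 0.14 (adjusted p = 0.92), and without Usp21 KO replicate 2 it was -0.14.

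**Figure D1:**
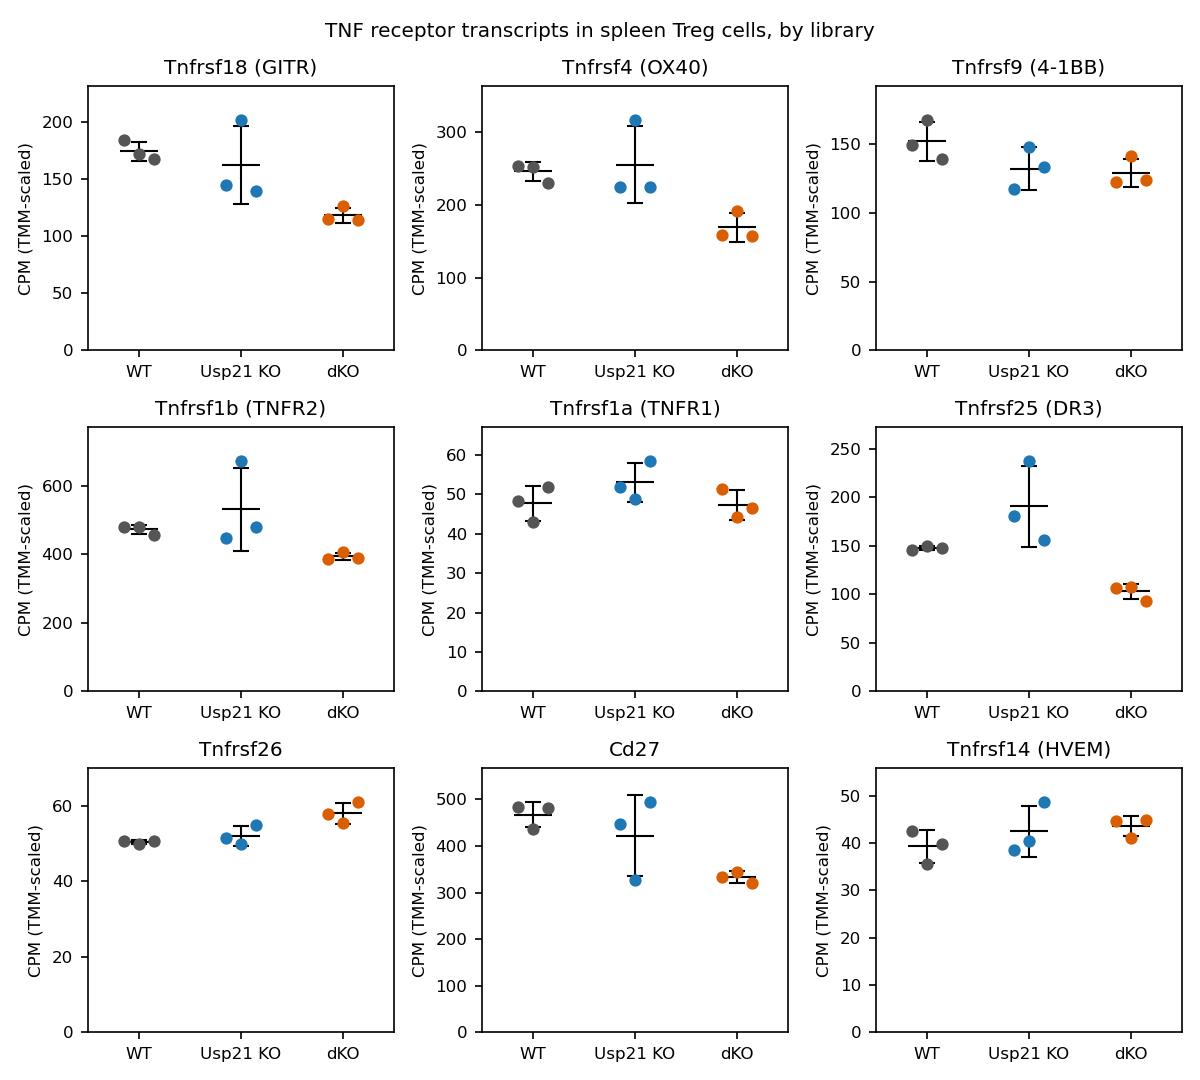
CPM of each of the 9 receptor genes (y axes, from 0) in the WT, Usp21 KO and dKO libraries (x axis). Points are libraries, wide marks the group mean and bars the SD (n = 3). The dKO points of Tnfrsf18, Tnfrsf4, Tnfrsf1b, Tnfrsf25 and Cd27 lie below all WT points, and Usp21 KO replicate 2 is the highest point for Tnfrsf18, Tnfrsf4, Tnfrsf1b and Tnfrsf25 and the lowest of its group for Cd27.

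Tnfrsf25 had the largest difference of the 9 between dKO and Usp21 KO. DR3 transcripts were at 146, 150 and 148 CPM in WT, 181, 237 and 156 CPM in Usp21 KO and 107, 108 and 93.6 CPM in dKO. The 3 groups did not overlap, with Usp21 KO highest and dKO lowest. Against Usp21 KO the dKO level fell to 53.8% (log2 fold change -0.89 ± 0.13, 95% interval -1.19 to -0.60, adjusted p = 0.00777, edgeR). Against WT the dKO value of -0.52 ± 0.13 lay just outside the threshold (adjusted p = 0.0501), and with the replicate number as a block it was inside (-0.52, adjusted p = 0.04). Usp21 KO against WT gave 0.38 ± 0.13 (unadjusted p = 0.0173, adjusted p = 0.35, edgeR), and 0.18 without Usp21 KO replicate 2 (adjusted p = 0.486).

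Cd27 and Tnfrsf1b had the highest counts. Cd27, the receptor for CD70, stood at 483, 437 and 481 CPM in WT, 446, 326 and 493 CPM in Usp21 KO and 334, 344 and 320 CPM in dKO. All dKO libraries were below WT, but 1 Usp21 KO library, replicate 2, lay inside the dKO range. The difference of -0.49 ± 0.13 from WT did not pass (adjusted p = 0.0536, edgeR), nor did that of -0.34 ± 0.13 from Usp21 KO (adjusted p = 0.144). TNFR2 transcripts (Tnfrsf1b) were at 480, 479 and 456 CPM in WT, 447, 670 and 478 CPM in Usp21 KO and 387, 406 and 388 CPM in dKO. The dKO libraries were again the lowest of all, at -0.26 ± 0.13 against WT (adjusted p = 0.266) and -0.43 ± 0.13 against Usp21 KO (adjusted p = 0.082). Without Usp21 KO replicate 2, Tnfrsf1b in Usp21 KO against WT moved from 0.17 to -0.04.

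Tnfrsf9 overlapped among the groups. 4-1BB transcripts were at 149, 167 and 139 CPM in WT, 117, 148 and 133 CPM in Usp21 KO and 122, 141 and 124 CPM in dKO. The estimate was -0.24 ± 0.10 in dKO against WT (adjusted p = 0.201) and -0.04 ± 0.10 in dKO against Usp21 KO (95% interval -0.26 to 0.19, adjusted p = 0.868, edgeR).

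The remaining receptors were measured at lower counts and had estimates of -0.01 to 0.20 in dKO against WT. TNFR1 transcripts (Tnfrsf1a) ranged from 43 to 51.9 CPM in WT, 48.7 to 58.3 in Usp21 KO and 44.1 to 51.4 in dKO. All of these ranges overlapped, and dKO against WT was -0.01 ± 0.10 (95% interval -0.23 to 0.20, adjusted p = 0.955, edgeR). Tnfrsf26 encodes a receptor of mouse cells that belongs to a small cluster with Tnfrsf22 and Tnfrsf23 on chromosome 7. It ranged from 49.8 to 50.8 CPM in WT, 49.8 to 55.0 in Usp21 KO and 55.4 to 60.9 in dKO. The dKO libraries lay above the others, at 0.20 ± 0.07 against WT (adjusted p = 0.104) and 0.16 ± 0.07 against Usp21 KO (adjusted p = 0.185). Reads that also fit its related neighbours may not have been counted for it, and 107 of its exon bases are shared with an antisense gene. Its level is therefore uncertain. HVEM transcripts (Tnfrsf14) ranged from 35.6 to 42.5 CPM in WT, 38.6 to 48.6 in Usp21 KO and 41.1 to 45.0 in dKO, with 0.15 ± 0.10 in dKO against WT (adjusted p = 0.419).

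Counted over the 9 genes, 2 fell and 0 rose in dKO against WT, where 5.78% of all 14994 tested genes passed, 2.77% lower and 3.01% higher. In dKO against Usp21 KO, 2 fell and 0 rose, beside 4.90% of all genes that passed, 3.20% lower and 1.70% higher. In Usp21 KO against WT, 0 of 9 passed, beside 0.0133% of all genes, 0.00667% lower and 0.00667% higher. At an unadjusted p under 0.05, 1 of 9 (Tnfrsf25) met the mark there, beside 10.6% of all genes, and DESeq2 and limma voom passed 0 of 9 as well. Tnfrsf25 was also the 1 gene of the 9 that was higher there without overlap, beside 8.06% of all genes. At an unadjusted p under 0.05, 6 of 9 met the mark in dKO against WT (22.4% of all genes) and 6 of 9 in dKO against Usp21 KO (23.6%). In dKO against WT, 5 genes were lower without overlap of the libraries (18.4% of all genes) and 1 was higher (17.6%). In dKO against Usp21 KO, 4 were lower without overlap (14.3%) and 1 higher (13.1%). The median log2 fold change of the 9 was 0.05 in Usp21 KO against WT, -0.26 in dKO against WT and -0.34 in dKO against Usp21 KO, beside 0.01, -0.01 and -0.01 over all tested genes. The comparisons share groups pairwise, so they are not independent of each other.

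**Figure D2:**
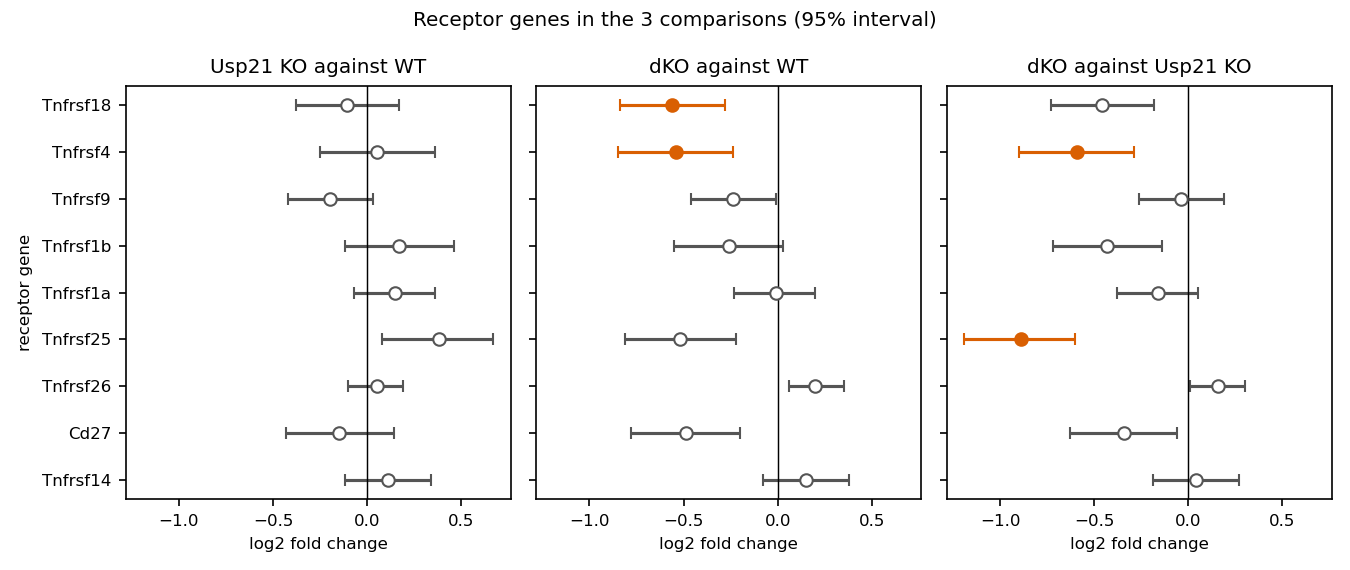
Log2 fold changes of the 9 receptor genes (y axis) in the 3 comparisons, with 95% intervals; filled orange points passed at an adjusted p under 0.05 over all tested genes. Tnfrsf18 and Tnfrsf4 passed in dKO against WT, Tnfrsf4 and Tnfrsf25 in dKO against Usp21 KO, and 0 in Usp21 KO against WT.

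These calls depended on which libraries and scaling were used. Without any 1 of the 6 WT or dKO libraries, 0 receptor genes passed in dKO against WT, although Tnfrsf18 kept values from -0.61 to -0.52 and Tnfrsf4 from -0.64 to -0.49. Without Usp21 KO replicate 2, 5 passed there: Tnfrsf18 (-0.56, adjusted p = 7.61e-05), Tnfrsf4 (-0.54, 0.000463), Tnfrsf25 (-0.51, 0.00041), Cd27 (-0.49, 0.000225) and Tnfrsf1b (-0.26, 0.00866). Over all genes, calls in that fit rose as well, from 866 to 2340, of which 1183 were lower. Without the same library, those 5 also passed in dKO against Usp21 KO, Tnfrsf25 at -0.70 (adjusted p = 0.000179, edgeR) and Tnfrsf4 at -0.40 (0.00866), while calls over all genes rose from 735 to 2192, of which 1136 were lower. Tnfrsf25 in dKO against Usp21 KO passed in 9 of 9 fits with 1 library left out. With library totals in place of TMM, the 9 genes gave 1 call in dKO against WT, Tnfrsf26 higher at 0.30 (adjusted p = 0.0265), while Tnfrsf18 was at -0.46 (0.0628) and Tnfrsf4 at -0.44 (0.0905). That scaling moved the median of all genes from -0.01 to 0.09 and the share of calls that were higher from 52.1% to 77.4%; in dKO against Usp21 KO it moved that share from 34.7% to 69.9%. When a score built from markers of other cell types was added to the model, Tnfrsf18 stood at -0.77 (adjusted p = 0.117) and Tnfrsf4 at -0.70 (0.223) in dKO against WT, and 0 of 9 passed. Over all genes, calls in that fit fell from 866 to 38. The score was 0.75 to 1.08 in the dKO libraries and -1.51 to 0.30 in all others. It separates dKO from the other groups, so this fit cannot tell the score and the genotype apart.

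The sum over the 9 genes, which gives most weight to Cd27 and Tnfrsf1b, was 1838, 1786 and 1763 CPM in WT, 1702, 2036 and 1784 CPM in Usp21 KO and 1378, 1457 and 1348 CPM in dKO. All dKO libraries were below all others, and the dKO mean was 77.6% of WT. Shares of this sum do not depend on scaling between libraries. Between WT and dKO, the shares of Tnfrsf18 (9.7% and 8.46%), Tnfrsf25 (8.22% and 7.38%) and Cd27 (26% and 23.9%) were lower in dKO without overlap. Those of Tnfrsf1b (26.3% and 28.3%), Tnfrsf1a (2.66% and 3.4%), Tnfrsf26 (2.81% and 4.17%) and Tnfrsf14 (2.19% and 3.13%) were higher without overlap. A gene whose CPM stays the same gains share when the sum falls, so a higher share is not a rise. In CPM the log2 fold changes were -0.26 for Tnfrsf1b, -0.01 for Tnfrsf1a, 0.20 for Tnfrsf26 and 0.15 for Tnfrsf14. How many of all genes shifted against this sum was not counted. The shares of Tnfrsf4 and Tnfrsf9 overlapped. The 9 genes therefore differed from WT to unequal extents within the same libraries.

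**Figure D3:**
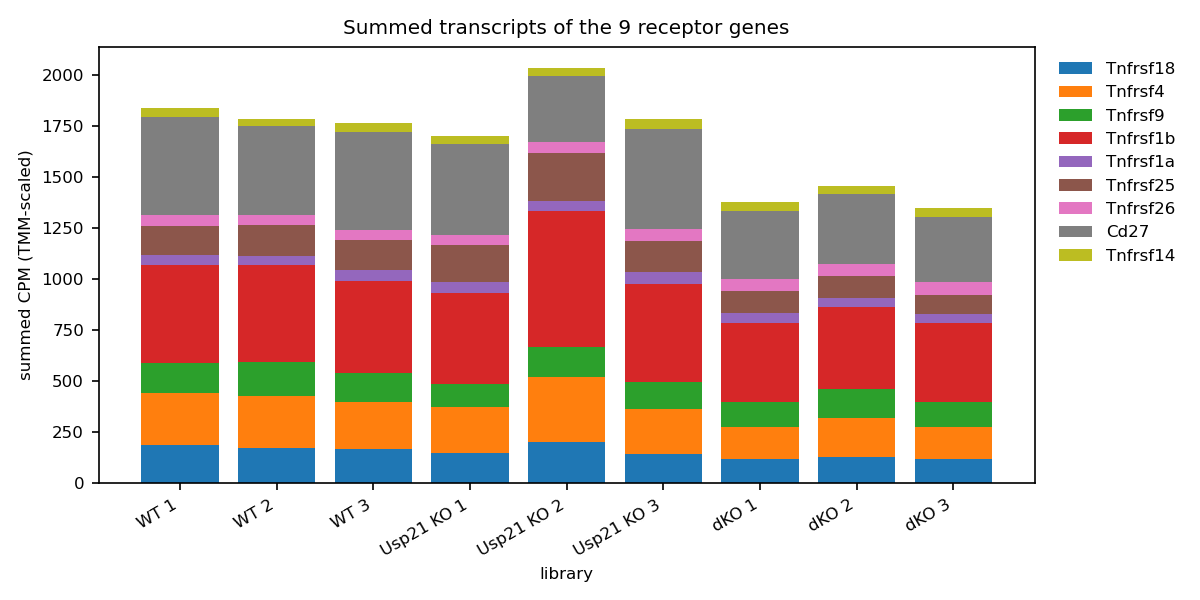
Summed CPM of the 9 receptor genes (y axis) in each of the 9 libraries (x axis), with each gene's contribution as a colour, not corrected for gene length. The 3 dKO bars end between 1348 and 1457 and the other 6 between 1702 and 2036.

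Foxp3, the lineage factor of Treg cells, fell further than any receptor gene, to 50.5% of WT in dKO (-0.99 ± 0.10, adjusted p = 0.00141, edgeR). It stood at 668, 689 and 622 CPM in WT, 827, 693 and 669 CPM in Usp21 KO and 328, 372 and 300 CPM in dKO. The ratio of each receptor to Foxp3 was accordingly higher in dKO than in WT for 9 of 9 genes without overlap, as it was for 86.4% of all tested genes. Against Usp21 KO it was higher without overlap for 8 of 9, beside 85.0% of all genes, and in Usp21 KO against WT for 0 of 9, beside 1.55%. Cd27 and Foxp3 illustrate the size of this shift, with a log2 ratio of -0.50 ± 0.15 (SD) in WT and 0.00 ± 0.11 in dKO. Of 17 cell cycle genes, 15 rose in dKO against WT (median 1.64), beside 3.01% of all genes that rose, in the same libraries. In Usp21 KO against WT, 0 of them passed with edgeR (median 0.94). There, 14 were higher at an unadjusted p under 0.05, a mark met in either direction by 10.6% of all genes. Against Usp21 KO, 2 of the 17 rose in dKO (median 0.71), beside 1.70% of all genes. The part of cell cycle genes in the receptor values was not tested. For the 18 effector Treg genes the count that passed in dKO against WT was 0 with edgeR (4 at an unadjusted p under 0.05, a mark met by 22.4% of all genes), and for the 12 resting T cell genes it was 0 (0 unadjusted).

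Around Tnfrsf18, 14 other genes start within 100 kb, of which 8 were tested. In dKO against WT, 1 of the 8 passed, Tnfrsf4, itself a gene of the receptor set, beside 5.78% of all tested genes. Sdf4, whose end lies next to Tnfrsf4, was at -0.13 ± 0.08 (adjusted p = 0.362), B3galt6 at 0.24 ± 0.13 (0.322), Ube2j2 at -0.04 ± 0.07 (0.784) and Fam132a at -0.23 ± 0.20 (0.538). Gm37090, between the 2 receptor genes, was at -0.39 ± 0.18 (0.242), and 9430015G10Rik at -0.23 ± 0.17 (0.452). Near Tnfrsf25, 5 of 10 genes were tested, and 1 passed in dKO against WT, beside the same share of all genes. Against Usp21 KO, 1 passed as well, beside 4.90% of all genes. Espn, which encodes the actin-bundling protein espin and ends beside Tnfrsf25 on the opposite strand, fell in dKO against WT (-0.43 ± 0.08, adjusted p = 0.012) and against Usp21 KO (-0.58 ± 0.08, adjusted p = 0.00412, edgeR). Its gene body ends 212 bases from that of Tnfrsf25, and without a strand setting reads that run past an end may not be separable. Plekhg5 (0.08 ± 0.10), Nol9 (-0.09 ± 0.07), Zbtb48 (-0.25 ± 0.10) and Acot7 (0.30 ± 0.23) did not pass against WT.

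**Figure D4:**
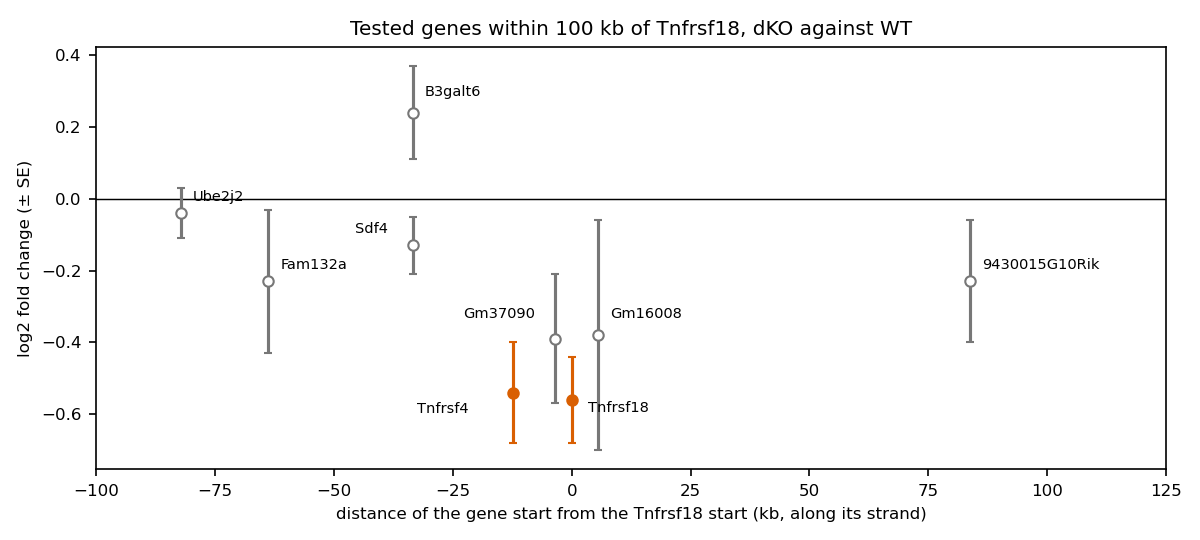
Log2 fold change in dKO against WT (y axis, bars are SE) of tested genes that start within 100 kb of Tnfrsf18, by distance of their start from the Tnfrsf18 start (x axis, kb). Filled orange points are the genes that passed, Tnfrsf18 and Tnfrsf4; the others lie between -0.39 and 0.24.

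Likeness of pattern was measured as the root mean square difference of log2 CPM over the 9 libraries, after each gene was centred on its own mean. The 3 genes closest to Tnfrsf18 were Ly6e (0.066), Pkp3 (0.076) and Tnfrsf4 (0.085). For Tnfrsf4 they were Mansc1 (0.063), Tnfrsf18 (0.085) and Ly6e (0.096). Of the 14993 other tested genes, 2 were closer to Tnfrsf18 than Tnfrsf4 was, and 1 was closer to Tnfrsf4 than Tnfrsf18 was. For Tnfrsf25 the closest were Grap (0.064), Itga7 (0.107) and Bcorl1 (0.107). Ly6e, which encodes a GPI-anchored surface protein, fell in dKO against WT (-0.58, adjusted p = 0.0184, edgeR). Within the receptor set, Tnfrsf1b was also near to Tnfrsf4 (0.135, with 20 genes closer), whereas Cd27 was not (0.313, with 3921 closer). Cd27 had its lowest Usp21 KO value in replicate 2, where Tnfrsf18, Tnfrsf4, Tnfrsf25 and Tnfrsf1b had their highest.

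The ligands of the family were measured in the same libraries. Of 17 ligand genes, 14 were tested, and in dKO against WT 4 rose and 1 fell (median 0.46), beside 3.01% of all genes that rose and 2.77% that fell. The rises were in Tnfsf11, which encodes RANKL (0.49 ± 0.10, adjusted p = 0.02), Cd40lg, the CD40 ligand (0.44 ± 0.09, 0.024), Tnfsf13b, the B cell survival factor BAFF (0.84 ± 0.20, 0.0357), and Fasl, the Fas ligand (0.94 ± 0.24, 0.049). Ltb, the lymphotoxin beta subunit, fell from 836 ± 27.3 to 599 ± 17.5 CPM (-0.48 ± 0.10, 0.0236). Tnfsf13b (3.09 ± 0.316 CPM in WT, 5.55 ± 0.101 in dKO) and Fasl (5.96 ± 1.16 and 11.5 ± 0.621) were at low levels, in libraries where myeloid and NK markers were also higher. With the replicate number as a block these calls were lost, Tnfsf13b at an adjusted p of 0.0563 and Fasl at 0.0629 (edgeR). Against Usp21 KO, 4 of 14 rose and 1 fell, beside 1.70% and 3.20% of all genes. Ltb was at -0.65 ± 0.10 (0.00871), Fasl at 1.36 ± 0.25 (0.0155), Cd40lg at 0.47 ± 0.09 (0.0228), Tnfsf11 at 0.43 ± 0.10 (0.0362) and Tnfsf4, the OX40 ligand, at 1.51 ± 0.35 (0.0391, all edgeR). Tnfsf4 was low, with 0.551 ± 0.071 CPM in Usp21 KO and 1.57 ± 0.328 in dKO, and its call was lost with the replicate block (adjusted p = 0.068, edgeR). The genes for the ligands of GITR and CD27, Tnfsf18 and Cd70, were too low to be tested. In Usp21 KO against WT 0 of 14 passed (0 at an unadjusted p under 0.05, a mark met by 10.6% of all genes).

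Of 19 further receptor genes of the family, 15 were tested and 0 passed in any comparison. In dKO against WT the median log2 fold change of the 15 was 0.44, beside -0.01 over all tested genes. There, 5 of the 15 had an unadjusted p under 0.05 with edgeR, 4 higher and 1 lower, a mark met by 22.4% of all genes. DESeq2 passed 2, both higher, where it passed 1499 over all genes, 816 of them higher. The smallest p-values were those of Tnfrsf8, which encodes CD30, at 0.56 ± 0.17 (adjusted p = 0.0927), and of Fas, the death receptor, at -0.27 ± 0.10 (adjusted p = 0.14). In Usp21 KO against WT the smallest was that of Fas, at -0.40 ± 0.10 (adjusted p = 0.273, edgeR).

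Among 24 tested adaptor and proximal signalling genes, 3 fell and 0 rose in dKO against WT (median -0.19), beside 2.77% of all genes that fell and 3.01% that rose. They were Traf4, a TRAF family member (-0.59 ± 0.11, adjusted p = 0.0122), Rnf31, the catalytic subunit of the linear ubiquitin ligase (-0.36 ± 0.08, 0.0308), and Map3k14, the NIK kinase of the non-canonical NF-kB pathway (-0.52 ± 0.12, 0.0365, and 0.0822 with the replicate block). Against Usp21 KO, 4 fell and 0 rose (median -0.19), beside 3.20% and 1.70% of all genes. They were Traf3 (-0.38 ± 0.06, 0.0094), Rnf31 (-0.45 ± 0.08, 0.0157), Traf4 (-0.56 ± 0.11, 0.0186) and Traf1 (-0.61 ± 0.13, 0.0278, all edgeR). Traf1 encodes an adaptor of TNFR2, and Traf3 a restraint on NIK.

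Of 17 NF-kB genes, 1 rose and 1 fell in dKO against WT (median -0.22), near the 3.01% and 2.77% of all genes. Tnip1, an inhibitor that binds A20, fell (-0.39 ± 0.10, adjusted p = 0.0472, and 0.0514 with the replicate block), and its relative Tnip3 rose from 1.38 ± 0.364 to 3.51 ± 0.229 CPM (1.34 ± 0.26, 0.0158). Against Usp21 KO, 3 fell and 1 rose (median -0.36), beside 3.20% and 1.70% of all genes. Rela, the p65 subunit, was at -0.36 ± 0.06 (0.0112), Nfkb1, the p105 and p50 subunit, at -0.30 ± 0.07 (0.0431), Tnip1 at -0.54 ± 0.10 (0.0154) and Tnip3 at 1.17 ± 0.26 (0.0319, all edgeR). With the replicate block the calls of Nfkb1 (adjusted p = 0.0594) and Tnip3 (0.068, edgeR) were lost. In Usp21 KO against WT, 0 passed among the adaptors (2 at an unadjusted p under 0.05) and 0 among the NF-kB genes (1 unadjusted). The unadjusted mark was met by 10.6% of all genes there. When the other-cell score was added to the model, 0 ligands, 0 adaptors and 0 NF-kB genes passed in dKO against WT. In dKO against Usp21 KO, 2 ligands, 0 adaptors and 0 NF-kB genes passed in that fit. The score separates dKO from the other groups, so these counts cannot tell it and the genotype apart. With the 6 libraries of dKO and Usp21 KO alone, 1 ligand, 0 adaptors and 0 NF-kB genes passed. Without any 1 WT or dKO library, at most 1 adaptor gene and 0 NF-kB genes fell in dKO against WT, and ligands that rose numbered 2 without WT replicate 2 and 0 otherwise. Without Usp21 KO replicate 2, 9 adaptor genes and 6 NF-kB genes fell and 7 ligands rose in that comparison, where calls over all genes were 2340, with 1183 lower and 1157 higher. In dKO against Usp21 KO, 0 ligands rose and at most 2 adaptor and 2 NF-kB genes fell without any 1 dKO library.

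**Figure D5:**
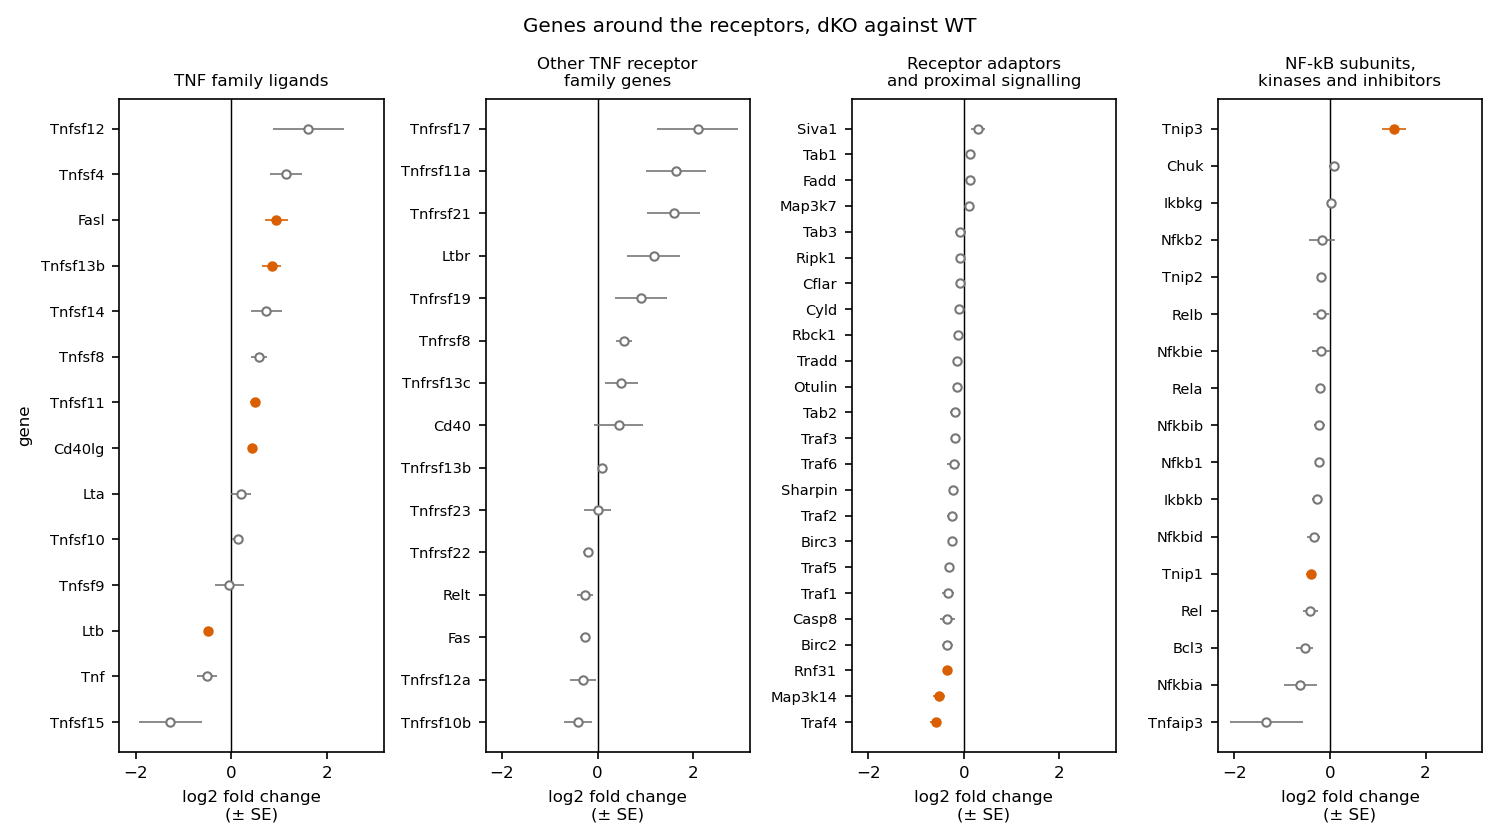
Log2 fold change in dKO against WT (x axis, bars are SE) of tested ligands, other receptors, adaptors and NF-kB genes (y axes); filled orange points passed at an adjusted p under 0.05. Passing ligands lie on both sides of 0 (4 higher, 1 lower), while the 3 passing adaptors are lower.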

How the data were processed

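RNA of sorted spleen Treg cells was sequenced in 9 libraries. The authors deposited 1 table of raw counts per Ensembl gene, with a column per library. Per the submitters' processing notes, build mm10 and the tools STAR, cutadapt 1.13, DESeq2 1.14.1 and HTSeq 0.6.1p1 were used; the strand option and annotation release are not given in the sources used here. Coordinates and exon lengths came from GENCODE M21, in which 54165 of 54232 gene IDs matched.

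The deposited counts entered edgeR 4.0.16 (R 4.3.3) without change. The fit was robust quasi-likelihood with TMM factors (0.964 to 1.05), filterByExpr and group as the sole term over all 9 libraries. Benjamini-Hochberg adjustment ran over 14994 genes with a threshold of 0.05. The common biological coefficient of variation was 0.174. The script was tested on simulated counts. DESeq2 1.42.0 and limma 3.58.1 (voom) were alternatives. The named genes were the 9 receptors, Usp21, Usp22, Foxp3, list genes that passed (or the 2 with the smallest p), genes near a receptor that passed and its 3 most alike genes. The members and lists were chosen with earlier results of these data known. P-values set a difference between groups against the spread between these libraries, and no pair was a duplicate (lowest chi-square per degree of freedom 5.08).

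The labels do not say that a replicate number marks a shared litter or day. Deviations of same-numbered WT and dKO libraries correlated at 0.101, 0.22 and 0.109 across genes, so the replicate block is given beside a result it changed in dKO against WT. Correlations with Usp21 KO were -0.263 to 0.153, so the other effects of the block stand with the alternatives, and beside the list calls it ended.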

Additional observations from a re-analysis of the deposited data

How the results depend on the processing

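Over 18 alternatives per comparison, the log2 fold changes of Tnfrsf18, Tnfrsf4, Tnfrsf25, Tnfrsf1b and Cd27 in dKO kept their sign against WT and against Usp21 KO. Genes passing in Usp21 KO against WT numbered 2, and 40 with no filter, 193 with DESeq2, 1 with the 6 libraries of the comparison alone and 2 to 17 with 1 library left out. In dKO against WT, 866 genes passed, and 1499 with DESeq2, 2315 with 6 libraries, 38 with the score of other cell types and 193 to 2340 with 1 library left out. Receptor genes passing there numbered 2, and 1 with RLE size factors (Tnfrsf18), 1 with library totals, 4 with no filter, 4 with DESeq2, 6 with 6 libraries, 0 with the score and 0 to 5 with 1 library left out. In dKO against Usp21 KO, 735 genes passed, and 1591 with DESeq2, 147 with 6 libraries, 250 with the score and 168 to 2192 with 1 library left out. Receptor genes passing there numbered 2, and 1 with library totals, 4 with DESeq2, 0 with 6 libraries (Tnfrsf25 at -0.90, adjusted p = 0.0502, edgeR), 1 with the score and 1 to 5 with 1 library left out. Among the fits with 1 library left out, the highest of these counts came without Usp21 KO replicate 2, where the share of calls that were higher in dKO than in Usp21 KO was 48.2%. With the replicate block, 461 genes passed in dKO against Usp21 KO, 606 in dKO against WT, where Tnfrsf25 passed and 3 receptor genes in all. In dKO against Usp21 KO the block ended the calls of Tnfsf4 (adjusted p = 0.068), Tnip3 (0.068) and Nfkb1 (0.0594, edgeR). Signs reversed for these values: in Usp21 KO against WT, Tnfrsf4 (-0.14) and Tnfrsf1b (-0.04) without Usp21 KO replicate 2, up to 0.14 and 0.28 without replicate 1; in dKO against WT, Tnfrsf1a with library totals (0.09), without WT replicate 3 (0.05) and without dKO replicate 2 (0.03), with a lowest value of -0.08 among fits with 1 library left out and of -0.10 with the score; in dKO against Usp21 KO, Tnfrsf9 with library totals (0.06) and without Usp21 KO replicate 2 (0.06), down to -0.12 without replicate 1, and Tnfrsf14 with the score (-0.09) and without Usp21 KO replicate 1 (-0.03), up to 0.14 without replicate 3. The cause of these changes was not tested. Leaving out a library leaves fewer to estimate the spread. The spread is estimated over all 3 groups together, so a library outside a comparison also enters its p-values. Without Usp21 KO replicate 2, calls in dKO against WT rose from 866 to 2340. The lists were put through these alternatives after the data were seen. The lowest count of the 9 genes in any library was 841, and an effect of depth was not tested.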
